A study of Mus musculus with 18 samples.

Results

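The 10 genes described here were 6 ligands of the EGF family (Hbegf, Areg, Ereg, Tgfa, Nrg1 and Nrg4) and the 4 ERBB receptors (Egfr, Erbb2, Erbb3 and Erbb4), taken by gene symbol from a table of 24419 symbols. RNA was sequenced from left ventricle of 8-week-old male C57BL/6 mice, in 6 groups of 3. The controls (con in the labels, sham in the study's text, and sham here) were set against mice whose proximal left anterior descending coronary artery had been tied for 10 min, 1 h, 6 h, 24 h or 72 h under sodium pentobarbital, which cuts blood flow to the ventricular wall. Infarcted tissue was taken at the end, so each time is a different set of mice, and each comparison asks how far the members had moved by then. The values were FPKM, fragments scaled to the length of the transcript and to the mapped fragments of the mouse, and so can be compared between genes.

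EGF-family ligands are made as membrane-anchored precursors, and metalloproteases of the ADAM family cut them loose. HB-EGF, amphiregulin, epiregulin and TGF-alpha act through EGFR, HB-EGF and epiregulin also through ERBB4, neuregulin-1 and neuregulin-2 through ERBB3 and ERBB4, and neuregulin-4 through ERBB4. ERBB2 binds no ligand of its own but is the preferred partner of the other receptors, and ERBB3 has little kinase activity and signals through its partner. In the heart, neuregulin-1 from endothelium acting on ERBB2 and ERBB4 of cardiomyocytes is needed for the development and upkeep of heart muscle.

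In the mm10 annotation Ereg lay on chromosome 5 from 91074622 to 91093646 and Areg from 91139599 to 91148432, both on the plus strand. Epgn, Ereg, Areg and Btc followed each other there with gaps of 39406, 45952 and 208828 bases and 0 protein-coding genes between neighbours. Of the 10 members, 6 had a promoter entry (Areg, Tgfa, Nrg4, Egfr, Erbb2 and Erbb4) among RefSeq sequences of build GRCm38.p6, which run from 250 bases before the gene start to 50 after it. Those of Areg, the ligand listed at 0 in every sham mouse, and of Egfr, the receptor with the largest difference from sham, are given 5′ to 3′ on the gene's strand. Capitals mark matches, on either strand, to the cAMP response element TGACGTCA, the GC box GGGCGG and the TATA box TATAAA. The Areg window is chr5:91139349-91139648 and the Egfr window chr11:16751953-16752252, both on the plus strand.
Areg: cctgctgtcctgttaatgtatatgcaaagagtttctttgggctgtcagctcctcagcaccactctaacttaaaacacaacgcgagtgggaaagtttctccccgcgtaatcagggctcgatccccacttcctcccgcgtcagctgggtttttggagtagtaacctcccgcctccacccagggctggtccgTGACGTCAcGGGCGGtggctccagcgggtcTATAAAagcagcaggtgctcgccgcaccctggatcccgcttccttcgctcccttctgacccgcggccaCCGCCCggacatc
Egfr: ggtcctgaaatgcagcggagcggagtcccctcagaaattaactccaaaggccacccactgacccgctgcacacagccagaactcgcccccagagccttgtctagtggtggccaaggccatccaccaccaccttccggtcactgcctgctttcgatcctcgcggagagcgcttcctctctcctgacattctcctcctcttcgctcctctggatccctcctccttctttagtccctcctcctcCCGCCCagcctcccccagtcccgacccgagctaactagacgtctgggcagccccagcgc
The Areg window held the cAMP response element with its first base at -61 from the start, a letter match present in 1.79% of 32851 mouse promoters of the same length. It also held a TATA box at -31 (13.6% of promoters) and GC boxes at -52 and 38 (35.7%). The Egfr window held 1 GC box, at -9. GC content was 59.3% for Areg and 62.3% for Egfr, against a median of 52.7% over all promoters. The 2 other motifs searched, AP-1 (TGANTCA, in 7.81% of promoters) and the E-box (CACGTG, in 7.15%), had no match in either window. None of the searched motifs overlapped another in these windows.

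FPKM summed to between 542418 and 600467 per mouse, and depth relative to the sham mouse numbered 1, read from the steps between low FPKM values, ranged from 0.812 to 1.31. Sequenced reads per mouse were not given with the values, so the counting error of a low FPKM is unknown. In bulk tissue, fewer cells of a type and less RNA per cell cannot be told apart. The cardiomyocyte list (Tnnt2, Myh6, Actc1, Tnni3, Pln and Ryr2) summed to 40652 to 42867 FPKM in sham mice, and none of its genes was at 0. The 6 h mouse numbered 1 stood apart: the atrial genes Myl7, Myl4 and Sln were at 18.7, 63 and 12.5 FPKM there, against 0 to 1.91 in the other 6 h mice. The 6 h results of Hbegf and Ereg are therefore also given without it. Those of other genes include it unless a mouse is said to be left out.

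At least 1 mouse reached an FPKM of 1 for 5 members (Hbegf, Ereg, Egfr, Erbb2 and Erbb3), and these were tested with limma on log2(FPKM + 1). A gene is called higher or lower where its Benjamini-Hochberg adjusted p over all genes tested was under 0.05. Areg, Tgfa, Nrg1, Nrg4 and Erbb4 stayed under that level in all 18 mice. Ereg passed the filter only through mice of the 3 late groups, so its values are given from the fit without a filter as well. Egfr reached that level in no sham or 1 h mouse, and its 72 h results are also given without a filter.

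Hbegf, the precursor of heparin-binding EGF-like growth factor, was by far the most abundant ligand member and made up 88.8% ± 2.32 (SD, n = 3) of the summed FPKM of the 6 ligands in sham mice. It was at 5.27, 4.85 and 5.15 FPKM in the sham mice, 4.94, 4.92 and 4.35 at 10 min, and 4.96, 5.45 and 5.27 at 1 h. At 6 h it reached 106, 68.3 and 45.4 FPKM, at 24 h 22.5, 24.2 and 39.7, and at 72 h 9.13, 9.73 and 7.78. Every 6 h mouse lay above every mouse of the other groups, every 24 h mouse above all 72 h mice, and every 72 h mouse above all sham mice. Against sham, Hbegf rose 14.4-fold at 6 h (log2 fold change 3.53, SE 0.27, limma adjusted p = 0.000475), 5.66-fold at 24 h (2.25, SE 0.20, adjusted p = 0.0018) and 1.75-fold at 72 h (0.69, SE 0.09, adjusted p = 0.00013). Without the 6 h mouse that carried atrial transcripts the 6 h value was 3.22 (adjusted p = 0.000117). The order of the group means was 6 h, 24 h, 72 h, 1 h, sham and 10 min. Of the neighbouring times, 6 h was above 1 h (3.49, SE 0.27, adjusted p = 0.000777), 24 h below 6 h (-1.28, SE 0.33, adjusted p = 0.0429) and 72 h below 24 h (-1.55, SE 0.21, adjusted p = 0.00126). The fall from 6 h to 24 h passed the threshold narrowly, and leaving out any of 5 of its 6 mice ended the call (adjusted p from 0.0565 to 0.128; the exception was the 24 h mouse numbered 3). No difference among sham, 10 min and 1 h was called, though every 1 h mouse (lowest 4.96 FPKM) lay above every 10 min mouse (highest 4.94).

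Ereg, which codes for epiregulin, was at 0.0304, 0 and 0.0274 FPKM in the sham mice and at no more than 0.0374 in any mouse of 10 min or 1 h. The 6 h mice had 1.81, 0.913 and 0.965 FPKM, the 24 h mice 0.732, 0.447 and 2.97, and the 72 h mice 1.05, 1.44 and 1.05. All 9 mice of the 3 late groups lay above all 9 of the earlier ones, and the late groups overlapped each other. On the log2(FPKM + 1) scale, which understates changes at such low levels, Ereg rose by 1.11 at 6 h (SE 0.15, limma adjusted p = 0.00317), 1.08 at 24 h (SE 0.35, adjusted p = 0.0478) and 1.09 at 72 h (SE 0.10, adjusted p = 1.34e-05). Without the filter, which Ereg passed only where it was high, the limma adjusted p was 0.00812 at 6 h, 0.0804 at 24 h, which is no call, and 3.83e-05 at 72 h. The 6 h value without the mouse that carried atrial transcripts was 0.93 (adjusted p = 0.000797). The 24 h call also ended with quantile normalization (adjusted p = 0.0765) and when any sham mouse was left out (adjusted p from 0.114 to 0.122) or the 24 h mouse numbered 1 (0.0539). Without the 24 h mouse numbered 3, the highest, the difference was 0.64 (adjusted p = 0.00615). Means at 6 h, 24 h and 72 h did not differ beyond their spread (adjusted p = 0.963 for 24 h against 6 h and 0.979 for 72 h against 24 h). Ereg made up 10.4% ± 1.2 (SD, n = 3) of the ligand FPKM at 72 h, against 0.326% ± 0.284 in sham mice, while the share of Hbegf was 78.7% ± 1.66 at 72 h after 96.9% ± 0.82 at 6 h.

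Areg, the gene of amphiregulin and the next gene to Ereg on the chromosome, was listed at 0 in all sham and 10 min mice and in 2 of the 3 mice at 1 h, the other being at 0.0433 FPKM. The 6 h mice had 0.432, 0.149 and 0.113 FPKM, the 24 h mice 0.0542, 0.0866 and 0.661, and the 72 h mice 0.0709, 0.163 and 0.124. All 9 late mice lay above all 9 early ones, and the highest value at each of 6 h and 24 h was in the mouse with the highest Ereg and Hbegf. Against sham, the exact permutation test of the means (two-sided) gave p = 0.1 for all 3 late times, the smallest value 3 mice against 3 can give. With no filter on low values, limma gave a difference of 0.16 on the log2(FPKM + 1) scale at 72 h (SE 0.03, adjusted p = 0.00467), and adjusted p = 0.0808 at 6 h and 0.239 at 24 h.

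Nrg1, which codes for neuregulin-1, was at 0.189, 0.0637 and 0.213 FPKM in sham mice and at 0.417, 0.565 and 0.62 at 72 h. The 72 h mice lay above all 15 others, whose highest was 0.337 at 10 min. In the fit without a filter Nrg1 was higher at 72 h than in sham (0.41, SE 0.07, limma adjusted p = 0.00243) and than at 24 h (0.43, SE 0.08, adjusted p = 0.0115), and quantile normalization left 0.13 against sham (adjusted p = 0.146). The exact permutation test against sham gave p = 0.1 at 72 h and at 10 min, and from 0.5 to 0.8 at the other times. Endothelial markers moved in opposite directions at 72 h, with Kdr (-0.90), Tie1 (-0.41) and Emcn (-0.40) lower, Vwf (0.45) higher and Pecam1 and Cdh5 not called. Their part in the Nrg1 difference was not tested. They summed to 569 to 673 FPKM in sham mice and 545 to 682 at 72 h, a sum carried mostly by Pecam1 and Vwf.

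Tgfa (TGF-alpha) and Nrg4 (neuregulin-4) stayed low throughout. Tgfa had group means from 0.147 FPKM at 10 min to 0.428 at 24 h, with 0.246 ± 0.133 (SD, n = 3) in sham mice, and the exact permutation test against sham gave p from 0.2 to 0.8. Nrg4 was at 0.226 ± 0.0177 FPKM in sham mice and 0.13 ± 0.0535 at 24 h, its lowest mean (SD, n = 3 each). All 24 h mice, the highest at 0.192, lay below the lowest sham mouse at 0.213 (exact permutation p = 0.1), and the fit without a filter did not call it (limma adjusted p = 0.0787).

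**Figure D1:**
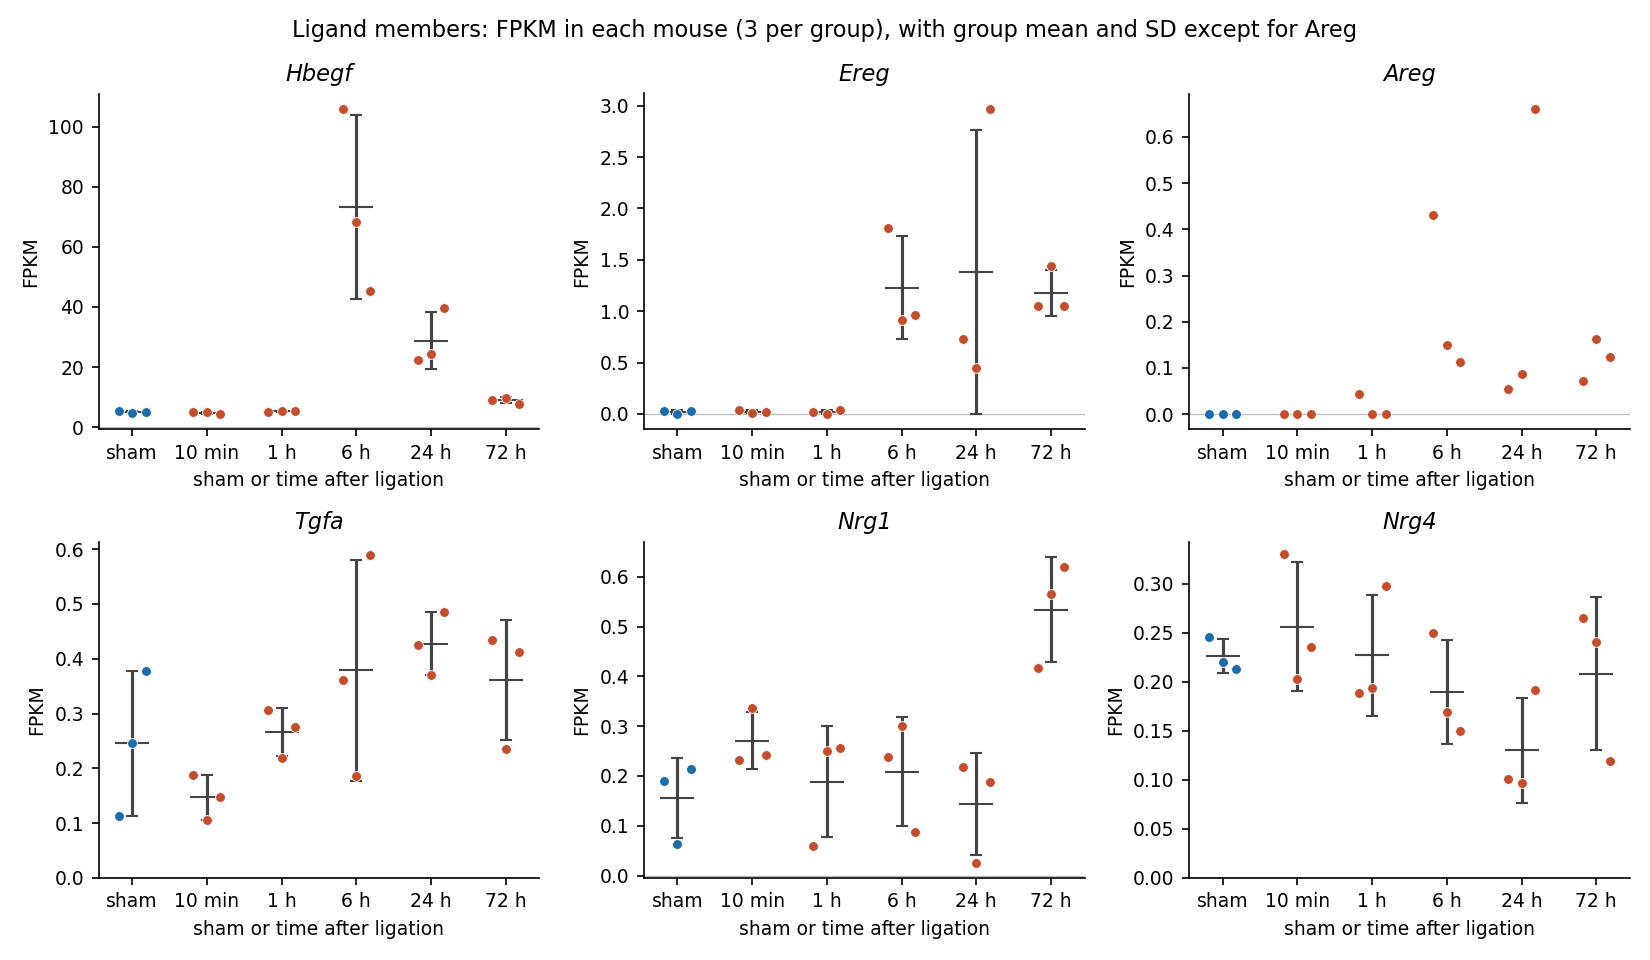
FPKM of the 6 ligand members (y axes, each panel with its own scale) in each mouse against sham or time after ligation (x axis). Points are mice, bars the group mean and SD (not drawn for Areg, which is listed at 0 in 8 mice); Hbegf peaks at 6 h with 45.4 to 106 FPKM, while Ereg and Areg are near 0 up to 1 h and above it from 6 h on.

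Egfr, the EGF receptor, was at 0.908, 0.653 and 0.947 FPKM in the sham mice, 1.09, 1.04 and 1.18 at 10 min, and 0.948, 0.836 and 0.652 at 1 h. The 6 h mice had 1.71, 1.02 and 1.67 FPKM, the 24 h mice 1.14, 1.09 and 1.99, and the 72 h mice 3.28, 4.54 and 3.3. The 72 h mice lay above all others, and the mice of 10 min, 6 h and 24 h lay above all sham mice by smaller margins. Egfr rose 4.43-fold at 72 h (log2 fold change 1.35, SE 0.12, limma adjusted p = 1.46e-05), and the difference between 72 h and 24 h was 0.97 (SE 0.18, adjusted p = 0.00448). Without the filter, which no sham or 1 h mouse passed, the limma adjusted p was 0.000172 against sham and 0.0116 against 24 h. The differences from sham at 10 min (0.20, adjusted p = 0.339), 6 h (0.42, adjusted p = 0.0603) and 24 h (0.38, adjusted p = 0.107) were not called. At 6 h the value passed under median-of-ratios scaling (0.48, adjusted p = 0.0392), quantile normalization (0.46, adjusted p = 0.0364) and without the 6 h mouse numbered 2 (0.55, adjusted p = 0.016).

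Erbb2, the shared partner receptor, was at 2.75, 3.19 and 3.04 FPKM in the sham mice, 3.6, 4.7 and 5.15 at 24 h, and 4.08, 4.43 and 4.12 at 72 h. Its means at 10 min, 1 h and 6 h were 2.91, 2.82 and 3.36 FPKM. The mice of 24 h and 72 h lay above all sham mice, and the 24 h and 72 h ranges overlapped. Erbb2 was called higher at 24 h (0.45, SE 0.13, limma adjusted p = 0.0374) and at 72 h (0.38, SE 0.08, adjusted p = 0.00227), but the sign at 72 h turned with quantile normalization (-0.14, adjusted p = 0.138) and the call was lost with median-of-ratios scaling (0.14, adjusted p = 0.13). Over all genes tested the median log2 fold change at 72 h was 0.29 with FPKM as deposited, 0.04 after median-of-ratios scaling and -0.12 after quantile normalization. At 24 h the call was lost under median-of-ratios scaling (0.33, limma adjusted p = 0.064), quantile normalization (0.22, adjusted p = 0.14) and no filter (adjusted p = 0.0662). It was also lost without any 1 of the sham mice or the 24 h mice numbered 2 and 3 (adjusted p from 0.0615 to 0.128).

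Erbb3, the neuregulin receptor with little kinase activity, was at 2.63, 2.97 and 2.32 FPKM in the sham mice and 1.72, 1.7 and 1.67 at 72 h. The 10 min mice spread from 2.48 to 4.24 FPKM, and the 6 h and 24 h mice overlapped with sham. The 72 h mice lay below every sham mouse, and Erbb3 was lower at 72 h (-0.43, SE 0.09, limma adjusted p = 0.00233), by 0.38 to 0.97 on the log2 scale under the 3 other scalings. Schwann cells are known for high ERBB3, and their marker list summed to 7.56 to 8.42 FPKM in sham mice and 7.26 to 8.78 at 72 h, with none of its 6 genes at 0.

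Erbb4, the neuregulin receptor of cardiomyocytes, was at 0.258, 0.533 and 0.318 FPKM in the sham mice, 0.873, 0.552 and 0.643 at 1 h, and 0.231, 0.245 and 0.0671 at 72 h. The 1 h mice lay above and the 72 h mice below all sham mice (exact permutation p = 0.1 for each). Neither was called in the fit without a filter (limma adjusted p = 0.393 at 1 h and 0.0914 at 72 h). At 6 h its mice spread from 0.171 to 0.891 FPKM.

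**Figure D2:**
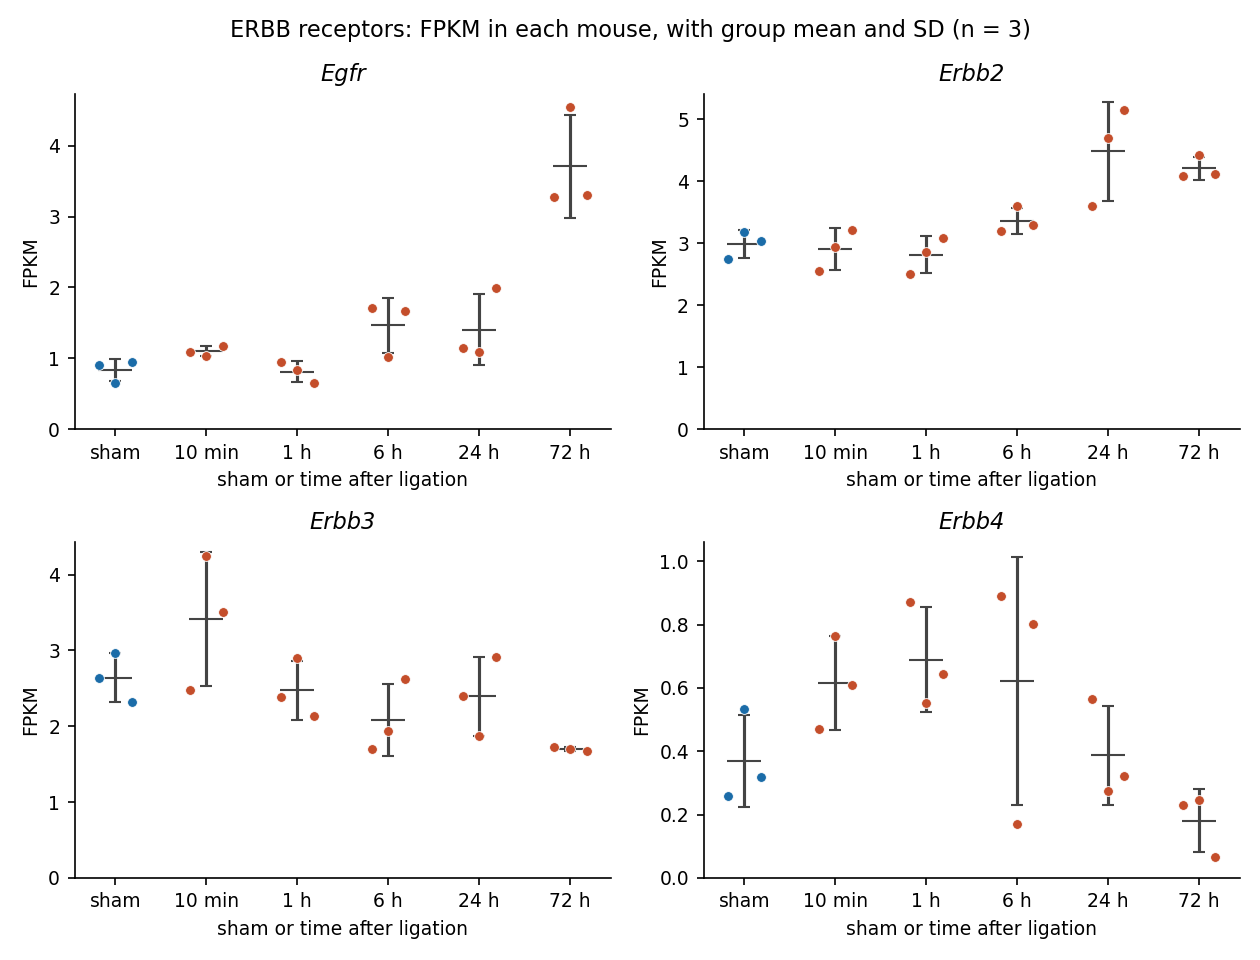
FPKM of the 4 ERBB receptors (y axes, each panel with its own scale) in each mouse against sham or time after ligation (x axis), with bars for the group mean and SD (n = 3). Egfr stands at 3.28 to 4.54 FPKM at 72 h, above every other mouse, and the 72 h mice of Erbb3 lie close together at 1.67 to 1.72 FPKM.

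Shares of the 4 receptors within a mouse do not depend on the scaling of that mouse by a single factor. In sham mice Erbb2 made up 43.8% ± 1.96, Erbb3 38.5% ± 3.06, Egfr 12.4% ± 3.01 and Erbb4 5.33% ± 1.72 of their summed FPKM (SD, n = 3). At 72 h Egfr made up 37.6% ± 3.48, with mice from 35.2% to 41.6%, and the other 15 mice lay between 8.88% and 22.8%. Erbb3 made up 17.4% ± 1.62 at 72 h, and the 72 h mice, from 15.6% to 18.5%, lay below all others, the lowest of which was at 22.7%. Erbb2 held 43.1% ± 2.29 at 72 h, overlapping with its range in sham mice.

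**Figure D3:**
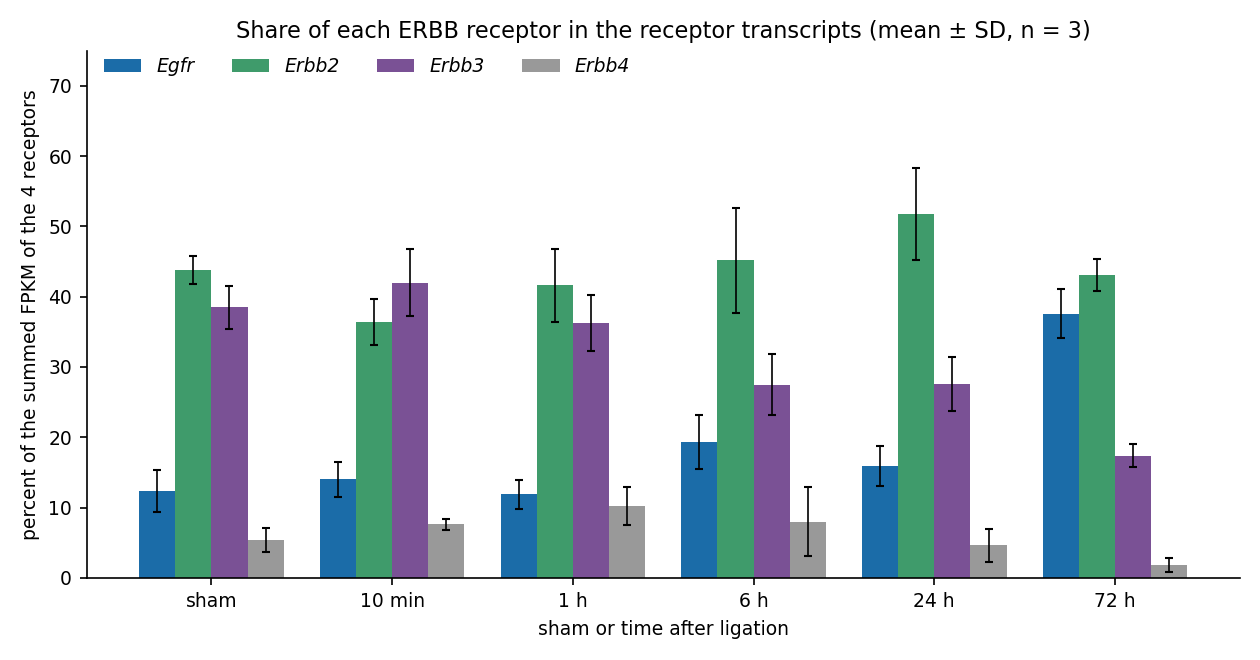
Share of each ERBB receptor in the summed FPKM of the 4 receptors (y axis, percent) in sham mice and at each time after ligation (x axis), as bars for the mean with SD (n = 3). The share of Egfr goes from 12.4% in sham mice to 37.6% at 72 h and that of Erbb3 from 38.5% to 17.4%, while Erbb2 is at 43.8% and 43.1%.

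The calls of the 5 tested members are set against the share of all genes called. At 10 min and at 1 h limma called 0 members, when 0.248% of all genes tested were called higher and 0.0978% lower at 10 min, and 0.669% and 0.0526% at 1 h. By unadjusted p under 0.05, 1 member (Egfr) passed at 10 min, as did 1955 of 13297 genes, and 0 passed at 1 h, beside 1673 of 13300 genes. At 6 h 2 members were higher (Hbegf and Ereg) and 0 lower, with 11.6% of all genes higher and 16.8% lower. At 24 h 3 were higher (Hbegf, Ereg and Erbb2) and 0 lower, beside 26.2% of all genes higher and 11.4% lower. In the fit without a filter only Hbegf was called at 24 h, with Ereg at limma adjusted p = 0.0804 and Erbb2 at 0.0662. At 72 h all 5 were called, 4 higher and 1 (Erbb3) lower, when 53.1% of all genes were higher and 24.2% lower, so being called was common at 72 h. The median log2 fold change of the 5 was 0.42 at 6 h, 0.45 at 24 h and 0.69 at 72 h, beside -0.08, 0.13 and 0.29 over all genes tested. The 5 include Ereg and Egfr, which reached the filter in no sham or 1 h mouse.

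Between consecutive times, 0 members were called from 10 min to 1 h (0.391% of all genes higher, 0.211% lower), with 1 (Egfr, lower) at an unadjusted p under 0.05, as were 1739 of 13298 genes. From 1 h to 6 h 2 were higher, Hbegf and Ereg (9.32% of all genes higher, 11.2% lower), Ereg also in the fit without a filter (limma adjusted p = 0.0135). From 6 h to 24 h 1 was lower, Hbegf (12.5% higher, 1.94% lower). From 24 h to 72 h Egfr was higher and Hbegf lower (29.7% higher, 13.5% lower).

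**Figure D4:**
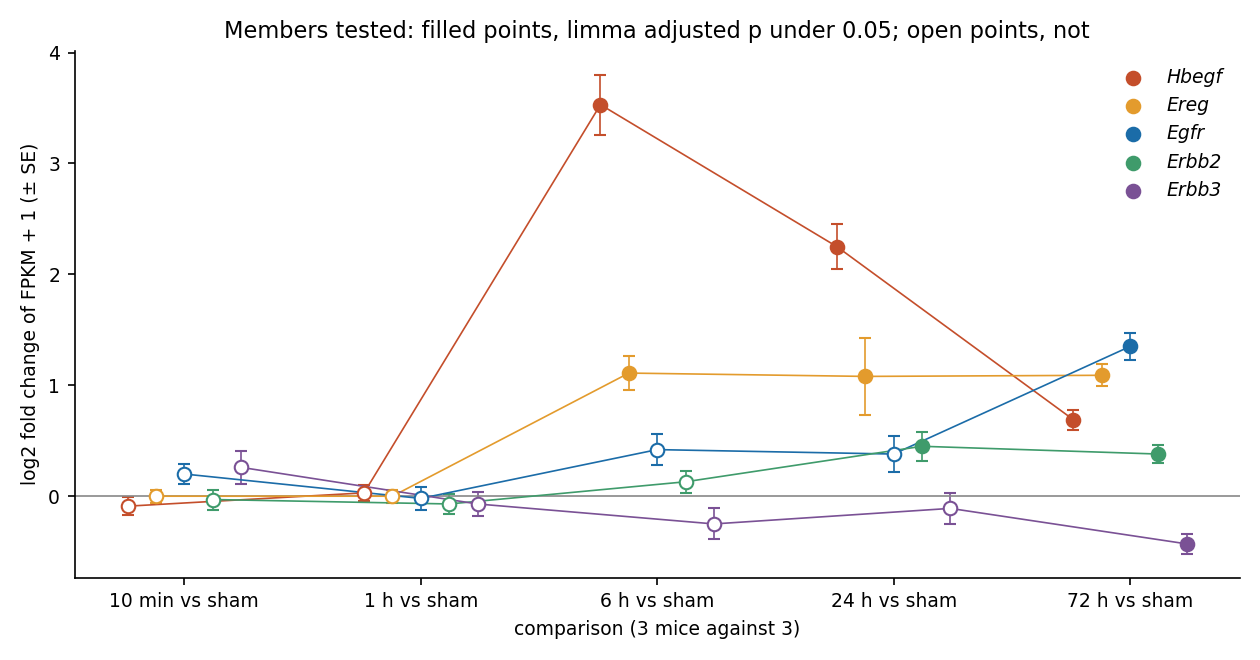
Log2 fold change of FPKM + 1 against sham (y axis, with SE) of the 5 members tested, at each time after ligation (x axis, 3 mice against 3), with filled points for a limma adjusted p under 0.05. Hbegf is highest at 6 h (3.53) and declines to 0.69 at 72 h, Egfr reaches 1.35 at 72 h, and the 72 h point of Erbb2 (0.38) is at -0.14 with quantile normalization.

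Of the 5 other ligands of the family, 3 were tested (Egf, Btc and Nrg2) and 2 of them were lower at 72 h. At that time 24.2% of all genes were lower and 53.1% higher. Egf, epidermal growth factor itself, was at 1.13, 1.26 and 1.35 FPKM in sham mice and 0.648, 0.648 and 0.497 at 72 h (log2 fold change -0.49, SE 0.09, limma adjusted p = 0.000933). Nrg2 (neuregulin-2) was at 3.1, 3.3 and 0.884 FPKM in sham mice and 1.08, 0.504 and 1.16 at 72 h, so the groups overlapped (-0.77, SE 0.30, adjusted p = 0.0441), and leaving out 1 mouse ended the call for 5 of the 6 mice (adjusted p from 0.06 to 0.146). The fit without a filter did not call Nrg2 at 72 h (limma adjusted p = 0.0962). Epgn (epigen), on the other side of Ereg, never exceeded 0.184 FPKM and was lower at 72 h only in the fit without a filter (-0.16, SE 0.04, adjusted p = 0.0179), and Nrg3 was listed at 0 in all 18 mice. Btc (betacellulin) was not called against sham at any time with FPKM as deposited, and was lower at 72 h with quantile normalization. Egf was called lower at 24 h as well under either of these: median-of-ratios scaling or quantile normalization.

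The sheddases and processing enzymes that release these ligands were called in growing number at the late times, and so were all genes. Over all genes, 6 h had 11.6% higher and 16.8% lower, 24 h 26.2% and 11.4%, and 72 h 53.1% and 24.2%. Of 10 tested, 4 were higher at 6 h (Adam9, Adam12, Rhbdf1 and Furin), 4 higher (Adam9, Adam12, Bace1 and Furin) and 1 lower (Nrd1, a protease that promotes shedding) at 24 h, and 9 higher and 1 lower (Nrd1) at 72 h. The list had a median log2 fold change of 0.37, 0.57 and 1.03 at these times. Adam12, a metalloprotease that can cleave HB-EGF, was at 0.207, 0.212 and 0.335 FPKM in sham mice, 3.02, 1.76 and 2.87 at 6 h, and 37.5, 61.5 and 46.4 at 72 h (1.49, SE 0.15, limma adjusted p = 0.00125 at 6 h and 5.28, SE 0.16, adjusted p = 3.05e-08 at 72 h). No sham, 10 min or 1 h mouse had more than 0.972 FPKM of Adam12. Like Ereg, it passed the filter only through late mice, where it was high, and no fit without a filter is given for it. Adam19 rose 5.66-fold at 72 h (2.42, SE 0.08, adjusted p = 5.77e-08) and was the only gene of the list called at 10 min, at 23.7, 20.3 and 22 FPKM against 14.2, 15.2 and 14.7 (0.55, SE 0.07, adjusted p = 0.0378), a call that ended when any sham mouse was left out (adjusted p from 0.112 to 0.152). Furin, a proprotein convertase that activates ADAM enzymes, rose 1.93-fold at 6 h (0.93, SE 0.12, adjusted p = 0.00268). Adam17, the main sheddase of most EGFR ligands and named here after its values were seen, was at 25.2 ± 3.28 FPKM in sham mice, 21.2 ± 3.65 at 6 h and 63.8 ± 4.16 at 72 h (SD, n = 3 each), with a call at 72 h only (1.31, SE 0.10, adjusted p = 3.68e-06).

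Of 5 surface partners, 4 were tested, and 2 were higher at 6 h, 3 at 24 h and 4 at 72 h, when Cd9 joined Cd44, Sdc1 and Sdc4 (median log2 fold change 1.22, 1.37 and 1.85), against 11.6%, 26.2% and 53.1% of all genes. With median-of-ratios scaling or quantile normalization 2 were higher at 24 h, Sdc4 no longer being called. Cd44, a hyaluronan receptor whose variant forms can hold HB-EGF at the membrane, was at 1.51, 1.22 and 1.6 FPKM in sham mice, 16.8, 5.53 and 7.32 at 6 h, and 14.9, 20.9 and 16.4 at 72 h (2.02, SE 0.34, limma adjusted p = 0.00626 at 6 h and 2.90, SE 0.13, adjusted p = 1.88e-07 at 72 h). The heparan sulphate proteoglycan Sdc4 rose 4.18-fold at 6 h (1.95, SE 0.28, limma adjusted p = 0.00365). Its 6 h mice were at 98.9, 51.1 and 50.8 FPKM, the first being the mouse that carried atrial transcripts. Sdc1 rose 7.17-fold at 72 h (2.41, SE 0.12, adjusted p = 3.21e-07).

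Feedback inhibitors and receptor turnover genes gave 4 higher of 10 at 6 h (Errfi1, Cblb, Ptpn1 and Ptprk), 5 at 24 h (Errfi1, Rnf41, Cblb, Socs5 and Ptpn1), and 7 higher with 1 lower (Lrig1) at 72 h, with medians of 0.21, 0.38 and 0.46. The shares of all genes called higher were 11.6%, 26.2% and 53.1%. Errfi1, whose product MIG6 binds and inhibits the ERBB kinases, was the only gene of the pathway lists called at 1 h, at 34.7, 38 and 35.1 FPKM against 8.69, 8.83 and 8.13 in sham mice (1.95, SE 0.06, limma adjusted p = 1.01e-05). It was at 30.9, 14.1 and 15.8 FPKM at 10 min, not called (1.07, adjusted p = 0.135), at 66.4, 26.8 and 27.8 at 6 h (1.98, SE 0.32, adjusted p = 0.00549) and at 20.6, 19.5 and 18.2 at 72 h (1.09, SE 0.07, adjusted p = 2.03e-06). All mice of 10 min and later lay above all sham mice, and at 1 h no member was called. Ptpn1, a phosphatase that acts on EGFR, rose 4.48-fold at 72 h (2.07, SE 0.07, adjusted p = 6.49e-08), and Cblb, a ubiquitin ligase of activated receptors, 2.42-fold at 6 h (0.97, SE 0.11, adjusted p = 0.00172). With median-of-ratios scaling the 24 h count was 5 higher and 1 lower (Lrig3), and the 72 h count 4 and 1. Quantile normalization gave 2 higher and 1 lower for 24 h, and 3 and 3 for 72 h.

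All genes tested against sham were the background for the adaptor and PI3K-AKT lists. In the 6 h comparison 16.8% of them were called lower beside 11.6% higher. The 24 h comparison had 11.4% lower beside 26.2% higher. For 72 h the lower share was 24.2% and the higher share 53.1%. Like this background, adaptors and RAS-MAPK genes were called in both directions. Of 16 tested, 3 were higher at 6 h (Shc1, Gab2 and Ptpn11) and 3 lower (Gab1 and Mapk3 among them). Later, 6 were higher and 0 lower at 24 h, and 9 were higher and 4 lower (Sos2, Gab1 and Ptpn11 among them) at 72 h, near the shares of all genes at that time. The medians were 0.05, 0.22 and 0.30, and the 72 h count was 5 and 5 with median-of-ratios scaling and 6 and 5 under quantile normalization. Shc1 (1.32, SE 0.06, limma adjusted p = 2.08e-07) and Nras (1.28, SE 0.07, adjusted p = 9.48e-07) rose most at 72 h. The docking genes parted at 6 h, with Gab2 higher (0.59, SE 0.16, adjusted p = 0.0337) and Gab1 lower (-0.54, SE 0.13, adjusted p = 0.0238), and both calls ended without any 1 of the sham mice. Of 8 PI3K-AKT genes, 2 were lower at 6 h, Pik3r2 (-0.72, SE 0.14, adjusted p = 0.0113) and Akt1 (-0.34, SE 0.07, adjusted p = 0.014, but 0.0658 with median-of-ratios scaling), 1 was higher at 24 h (Pik3cb), and 3 were higher (Pik3cb, Pik3r2 and Akt1) and 2 lower (Akt2 and Mtor) at 72 h (medians -0.03, 0.03 and 0.08). Mtor fell at 72 h (-0.58, SE 0.08, adjusted p = 0.00017), while Pik3cb was at 0.33 (SE 0.09, adjusted p = 0.00781) as deposited and at -0.19 with quantile normalization, and the 72 h count of the list was 0 higher and 3 lower under median-of-ratios scaling and under quantile normalization alike.

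Markers of other cell types moved with these members, and their part in the members' differences was not tested. Over all genes, 11.6% were higher at 6 h, 26.2% at 24 h and 53.1% at 72 h. The 6 neutrophil markers were all called higher at 6 h and 5 at each of 24 h and 72 h. Of these, Csf3r, Retnlg, Mmp9 and Cxcr2 had means of 0.688 FPKM or less in sham mice and up to 1 h. They passed the filter only through late mice, where they were high, and no fit without a filter is given for them. The summed FPKM of the 6 markers was 2.56 to 5.28 in sham mice. It was 1001, 117 and 377 in the 6 h mice numbered 1, 2 and 3. The 24 h mice had 216, 45.2 and 996. The 6 h mouse numbered 1 and the 24 h mouse numbered 3, highest in the neutrophil sum, were also highest in Hbegf, Ereg and Areg within their groups. Of the 6 h mice numbered 2 and 3, the latter had the higher neutrophil sum, with Hbegf at 68.3 and 45.4 FPKM, Ereg at 0.913 and 0.965, and Areg at 0.149 and 0.113. By 72 h the sum was 54.9 to 67.8, and Ereg was at 1.05 to 1.44 FPKM there.

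Macrophage markers were higher for 2 genes and lower for 1 of 6 at 6 h, when their sum was 126 to 147 FPKM beside 140 to 158 in sham mice. They were higher for 5 at 24 h and 6 at 72 h, with a sum of 230 to 273 and 1252 to 1558 FPKM. Fibroblast markers were called for 0 genes higher and 2 lower at 6 h and for all 6 higher at 72 h, with a sum of 210 to 222 FPKM in sham mice, 165 to 222 at 6 h and 1919 to 2278 at 72 h. Egfr and Nrg1 were highest at that time. Cardiomyocyte markers were lower for 1, 3 and 6 of 6 at 6 h, 24 h and 72 h, and the sum at 72 h was 16673 to 20333 FPKM. Erbb3 and Erbb4 had their lowest means at 72 h. At 72 h the other lists gave 1 higher and 3 lower of 6 endothelial, 4 higher of 6 epicardial, 2 higher and 3 lower of 5 smooth muscle and pericyte, 1 higher and 2 lower of 4 tested Schwann cell, 2 higher of 4 atrial, 1 lower of 2 tested adipocyte and 1 higher of 1 tested lymphocyte genes. Being called was common over all genes at that time. The epicardial genes Krt19 and Lrrn4, with means of 0.719 FPKM or less before 72 h, passed the filter only through late mice.

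**Figure D5:**
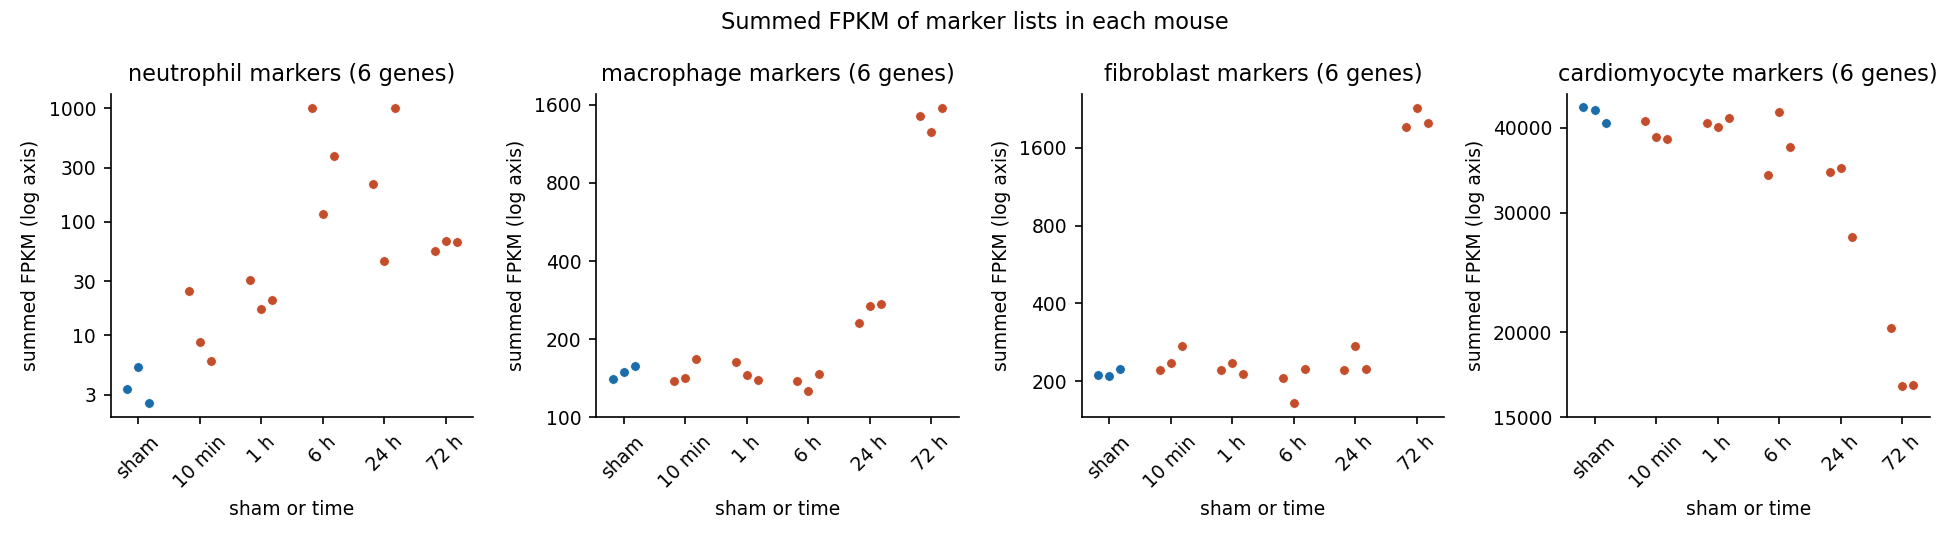
Summed FPKM of 4 marker lists of 6 genes each (y axes, log scale) in each mouse, in sham mice and at each time after ligation (x axis), blue for sham and red for ligation. Neutrophil markers reach 1001 and 996 FPKM in 1 mouse each of 6 h and 24 h, and macrophage and fibroblast markers are highest at 72 h, when cardiomyocyte markers are lowest.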

How the data were processed

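Left ventricular RNA of 18 mice (6 groups of 3) was sequenced by the authors, who trimmed reads with cutadapt 1.18, aligned them to mm10 with HISAT2 2.1.0 and estimated levels with StringTie 1.3.4d; the authors used Cufflinks to compare groups, and their comparisons were not used here. The deposited values are FPKM per gene symbol and mouse, with no filter, and 0 per-sample columns were left unused. FPKM keep no read counts, so no count model was run. The members and gene lists were chosen with earlier results of these data known.

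Genes reaching an FPKM of 1 in any mouse (13333 of 24419) were tested with limma 3.58.1 (R 4.3.3, eBayes with a mean-variance trend) on log2(FPKM + 1), on the 6 mice of each comparison (two-sided). P-values were adjusted over all genes by Benjamini-Hochberg, with a threshold of 0.05. The script was tested on simulated data. Fold changes are on the log2(FPKM + 1) scale, which understates changes of low genes, and ratios are of mean FPKM. Members under the filter were given an exact permutation test and the same fit without a filter. All members were named. From each pathway list the 2 called genes with the largest change at 6 h and at 72 h were named, together with genes from counts of 5 or fewer, chosen after their values were seen. Some genes that these rules name are not reported here. Marker lists of 11 cell types were summed per mouse. Alternatives were no filter, a filter on the mean, a pseudocount of 0.1, 3 other scalings, all 18 mice in 1 fit, the replicate number as a block, no variance trend, and leaving out each mouse. Mice of a group are separate animals. Promoters were RefSeq sequences of GRCm38.p6, and gene positions came from the mm10 annotation. Python 3.11.15 was used for sums, shares and figures.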

Additional observations from a re-analysis of the deposited data

Results flagged for a closer look

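Each comparison of consecutive times tests whether 2 effects against the same sham mice differ, and 5 such differences of the members passed the limma threshold. On the log2 scale, Hbegf was higher at 6 h than at 1 h (difference 3.49, SE 0.27, adjusted p = 0.000777), lower at 24 h than at 6 h (-1.28, SE 0.33, adjusted p = 0.0429) and lower at 72 h than at 24 h (-1.55, SE 0.21, adjusted p = 0.00126). Ereg was higher at 6 h than at 1 h (1.11, SE 0.15, adjusted p = 0.00522). In the fit without the filter, which Ereg passed only where it was high, the limma adjusted p was 0.0135. Egfr was higher at 72 h than at 24 h (0.97, SE 0.18, adjusted p = 0.00448, and 0.0116 in the fit without the filter).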

How the results depend on the processing

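Of 666 values of the tested members under the alternatives, 626 kept their side of the threshold, 23 lost a call and 16 gained one. The other 1 turned: Erbb2 at 72 h against sham, at -0.14 with quantile normalization. Among the 626, the sign changed in 32, all of them called under neither setting. Against sham, the count of members higher at 6 h went from 2 to 1 with the filter on the mean, which no longer tests Ereg, and to 3, with Egfr, under quantile normalization, median-of-ratios scaling, the replicate block, the fit of all 18 mice and without the 6 h mouse numbered 2. The count at 24 h went from 3 to 1 with no filter and with quantile normalization, and was 1 to 3 with a mouse left out, being 1 without any single sham mouse. From 1 h to 6 h the higher count was 1 with the filter on the mean. From 6 h to 24 h 1 member (Erbb2) was higher in the fit of all 18 mice, and 0 were lower with no filter, with quantile normalization, with the replicate block (Hbegf at adjusted p = 0.116), and 0 to 1 with a mouse left out. From 24 h to 72 h the higher count was 2 with no filter (Egfr and Nrg1) and 1 to 2 with a mouse left out (2 without the 24 h mouse numbered 3), and the lower count was 2 with median-of-ratios scaling, 3 with quantile normalization and 1 to 2 with a mouse left out (2 without the 24 h mouse numbered 2). Same-numbered mice share only a number: in 0 of 9 comparisons were all 3 correlations of their deviations over 0.1 (range -0.327 to 0.415), and the replicate block otherwise changed 1 member's call, Egfr at 6 h against sham (0.42, adjusted p = 0.0419), and that of Adam19 at 10 min (adjusted p = 0.0736). Apart from Ereg leaving the tested genes, the cause of these changes was not tested. Of 414 values of the other named genes and of Areg, Nrg1 and Epgn without a filter, run under alternatives chosen after seeing the data, 378 kept their call, 35 lost it and 1 turned, Pik3cb at 72 h at -0.19 with quantile normalization. Read counts behind each FPKM are unknown, and 3 mice a group limit every test, most of all for the members under an FPKM of 1.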

Other observations

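Genes whose log2(FPKM + 1) followed each called member most closely over the 18 mice were ranked by Pearson r among 12686 genes, as a description of mice that share time groups and the FPKM scaling. For Hbegf they were Tmem88b (r = 0.983), Bcr (0.981) and Syt12 (0.974), and for Ereg the myeloid receptor Cd300lf (0.982), Il17ra (0.981) and Olr1 (0.981). For Egfr they were Pign (0.979), Tnfrsf11b, the gene of osteoprotegerin (0.97), and Cers6 (0.97). For Erbb2 they included Nr2c2ap (0.953) and Pus7l (0.947), and for Erbb3 they were Ppp1r26 (0.865), Ifit1bl2 (0.854) and Exoc6 (0.83).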
